A study of Mus musculus with 6 samples.

Results

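Il10, the gene of the cytokine interleukin-10, was followed together with Maf, Prdm1 and Ahr, the genes of 3 transcription factors described to act on it in CD4+ T cells. The members were taken by name. Each gene's values were summed over its RefSeq transcripts in the deposited table, which gave 4 members of 19977 genes. The libraries were made from CD4+ T cells, the mice being wild type and of the C57BL/6 strain. The young mice were 6 to 8 weeks old (3 libraries; the sample titles code this age as 1 month) and the old mice 11 months (3 libraries). In both groups the cells were taken from spleen and lymph nodes, purified by flow cytometry and then kept in culture for 6 hours under antibodies to CD3 and CD28, which trigger the T-cell receptor and its costimulatory receptor. No unstimulated library is among the 6, so levels are those of stimulated cells. The labels do not say whether each library is a separate animal, so the p-values measure the spread between libraries, which may be partly technical.

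Interleukin-10 restrains inflammation: it acts through its receptor on antigen-presenting cells and on T cells, and several kinds of CD4+ T cell make it, among them regulatory, Th2, follicular and type 1 regulatory cells. Maf (c-Maf) is a basic leucine zipper factor that binds the Il10 promoter. Prdm1 (Blimp-1) is a zinc-finger repressor of terminally differentiated lymphocytes that is needed for Il10 in several effector types. Ahr, the aryl hydrocarbon receptor, is activated by environmental and dietary ligands, pairs with Arnt on DNA, and has been described to act with Maf on Il10.

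In GRCm38, Il10 (gene 16153) lies on chromosome 1 from 131019845 to 131024970. Maf (gene 17132) lies on chromosome 8 from 115703253 to 115706894, Prdm1 (gene 12142) on chromosome 10 from 44437174 to 44528558, and Ahr (gene 11622) on chromosome 12 from 35497979 to 35534989. The span of none of the 4 overlaps another gene in the RefSeq gene table. A RefSeq promoter window was matched for 1 of the 4 members, Prdm1, and is shown because Prdm1 is one of the genes followed here. The window of Il21 is set beside it, since Il21 is a cytokine gene and the 1 gene called in the list of Maf-dependent genes below. Both are the 250 bases before an annotated start, on the minus strand of GRCm38.p6, at chr10:44458749-44458998 for Prdm1 and chr3:37232637-37232886 for Il21. The Prdm1 window lies inside the gene's span of 44437174 to 44528558, so it precedes an inner start of that gene. Capitals mark the Ahr core GCGTG and the Maf half-site TGCTGA on either strand.
Prdm1: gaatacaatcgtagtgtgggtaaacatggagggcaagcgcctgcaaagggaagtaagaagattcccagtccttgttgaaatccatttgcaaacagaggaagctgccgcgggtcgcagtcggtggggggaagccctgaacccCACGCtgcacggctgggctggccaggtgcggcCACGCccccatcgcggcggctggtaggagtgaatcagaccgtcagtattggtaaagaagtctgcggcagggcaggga
Il21: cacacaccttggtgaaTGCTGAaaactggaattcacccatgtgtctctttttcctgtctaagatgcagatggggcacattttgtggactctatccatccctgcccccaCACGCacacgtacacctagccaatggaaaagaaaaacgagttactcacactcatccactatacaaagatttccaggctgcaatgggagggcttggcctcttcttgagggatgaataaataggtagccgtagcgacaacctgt
The Prdm1 window held 2 matches to GCGTG, at -109 and -77 from the start and both on the opposite strand, and 0 to TGCTGA. The Il21 window held 1 match to TGCTGA at -234 and 1 to GCGTG at -142. The searched motifs do not overlap each other in these windows. Over all 32851 windows of the same length, 28.2% held GCGTG and 16.1% held TGCTGA on either strand. GAAAG, the core of the sequence Prdm1 binds, was in 51.5% of all windows and had 0 matches in both of these.

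Libraries held between 16932551 and 18708205 expected counts. Levels of 1 gene across libraries are given as CPM, counts scaled to library size with TMM factors, and levels of different genes as FPKM, which is scaled by transcript length. Genes counted as called had an adjusted p under 0.05 (Benjamini-Hochberg, edgeR's quasi-likelihood test) among 10509 genes. Of those, 0.875% were called, 0.742% higher and 0.133% lower in old libraries. For 9.9% every old library lay above every young one, and for 6.54% the reverse held. An unadjusted p under 0.05 was reached by 10.6% in either direction and by 6.69% higher in old libraries, and 44.9% had a log2 difference above 0. Without young replicate 1, 5.86% were called higher and 2.98% lower, and DESeq2 with all libraries called 3.56% higher. These shares are the background for the counts of list genes given below. Young replicate 1 stood apart from the other young libraries, with which it correlated at 0.927 and 0.914 across genes, against 0.982 between those 2 (genes are not independent replicates). The CD4 markers Cd4 and Cd3e did not differ beyond the spread, at 516 ± 112 against 471 ± 160 CPM and 497 ± 70.0 against 430 ± 62.7 CPM in old and young libraries (SD, n = 3 each). Over the 4 CD4 marker genes tested, 0 had an unadjusted p under 0.05. Their log2 differences lay between -0.215 and 0.209, and 3 of the 4 were positive. In bulk RNA, more cells that express a gene and more RNA of it per cell cannot be told apart, which holds for every difference given here.

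Il10 and Maf were called higher in old libraries. All 4 members were higher in each old library than in any young one, as were 9.9% of genes, and all 4 had an unadjusted p under 0.05, as did 6.69% of genes in that direction. Genes tested had a mean of at least 1 FPKM over the 6 libraries. Ahr, at 0.987 FPKM on average in young libraries, passed through its old level of 2.30 FPKM. Il10 stood at 2.84, 3.66 and 1.73 CPM in young replicates 1, 2 and 3, and at 21.9, 26.4 and 16.5 CPM in old replicates 1, 2 and 3. The lowest old library was thus 4.51-fold above the highest young one. The group means were 21.6 ± 4.93 and 2.74 ± 0.964 CPM (SD, n = 3 each), a log2 difference of 2.97 ± 0.33 (SE; edgeR adjusted p = 0.0207), and Il10 ranked 16 of 10509 genes by p. The young values rest on few reads: 49, 68 and 30 expected counts, of which the last has a 95% Poisson interval of 20.2 to 42.8, covering counting error only.

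Maf was the most abundant of the 4 and the steadiest among old libraries. It stood at 42.0, 42.0 and 24.0 CPM in young replicates 1, 2 and 3 and at 152, 167 and 140 CPM in old replicates 1, 2 and 3. Means of 153 ± 13.7 and 36.0 ± 10.4 CPM (SD, n = 3 each) gave a log2 difference of 2.09 ± 0.25 (SE; edgeR adjusted p = 0.0241), or 4.26-fold. The lowest old library was 3.33-fold above the highest young one.

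Prdm1 stood at 34.97, 32.1 and 26.8 CPM in old replicates 1, 2 and 3 and at 17.7, 7.04 and 5.43 CPM in young replicates 1, 2 and 3. The groups did not overlap. Young replicate 1 was far above the other young libraries, and the lowest old library was 1.51-fold above it. The log2 difference was 1.64 ± 0.43 (SE, n = 3 each) and was not called (edgeR adjusted p = 0.174). Without young replicate 1 it was 2.33 with an edgeR adjusted p = 0.00194, against a background of 5.86% of genes called higher in that fit.

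Ahr was the lowest of the 4 in FPKM in every library, though not in CPM, where Il10 was lower in the young libraries. It stood at 9.06, 14.2 and 15.1 CPM in old replicates 1, 2 and 3 and at 8.28, 4.41 and 3.52 CPM in young replicates 1, 2 and 3. Old replicate 1 and young replicate 1 nearly met, with a ratio of 1.09. The log2 difference of 1.24 ± 0.38 (SE, n = 3 each) was not called (edgeR adjusted p = 0.254), and was 1.68 without young replicate 1 (edgeR adjusted p = 0.0155). DESeq2, with Benjamini-Hochberg adjustment and all 6 libraries, called both Prdm1 (adjusted p = 0.00788) and Ahr (adjusted p = 0.0481), where 3.56% of genes were called higher.

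**Figure D1:**
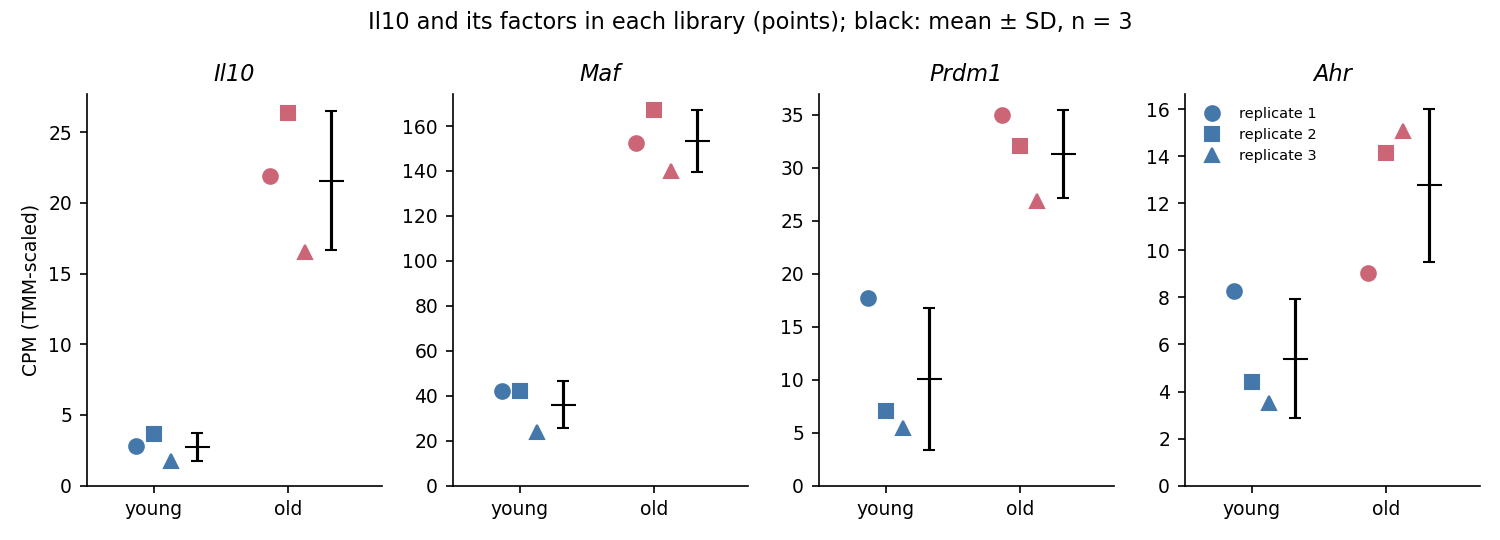
CPM (vertical axis, from 0, own scale per panel) of Il10, Maf, Prdm1 and Ahr in the 3 young (blue) and 3 old (red) libraries, with marker shape giving the replicate number and black bars the mean ± SD. Old libraries lie above young ones in each panel, with the widest gap for Il10 and the narrowest for Ahr, where young replicate 1 (8.28) and old replicate 1 (9.06) nearly meet.

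Per length, the order in old libraries was Maf, Il10, Prdm1 and Ahr, at 41.7 ± 4.41, 16.7 ± 4.07, 5.95 ± 0.844 and 2.30 ± 0.544 FPKM (SD, n = 3). No neighbours in that order overlapped. In young libraries Maf stood first at 9.77 ± 3.04 FPKM, while Il10 (2.11 ± 0.773), Prdm1 (1.90 ± 1.28) and Ahr (0.987 ± 0.488) overlapped with each other (SD, n = 3). In young replicate 1 Prdm1 was above Il10, at 3.36 against 2.24 FPKM, and in young replicates 2 and 3 it was below, at 1.35 against 2.81 and 0.98 against 1.28.

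Il10 and Maf each have 1 transcript in the deposited table, Prdm1 has 5 and Ahr 2. For Prdm1, 1 transcript (XM_006512503.2) was at 0 in all 6 libraries, and most of the FPKM fell on NM_007548.4 or XM_006512505.2, whose shares moved widely within a group. NM_007548.4 held 83.9%, 0% and 44.9% in young replicates 1, 2 and 3 and 63.1%, 48.6% and 37.1% in old replicates 1, 2 and 3. XM_006512505.2 held 0%, 80.7% and 23.5% in the young and 32.5%, 42.9% and 59.8% in the old libraries in the same order. For Ahr, NM_001314027.1 held 63.6%, 100% and 100% in young replicates 1, 2 and 3 and 68.9%, 0% and 4.9% in old replicates 1, 2 and 3, with the rest on NM_013464.4. Both Ahr transcripts are tied to 1 and the same GENCODE transcript. Shares that differ this much between libraries of 1 age were not tested between ages, and only the sums per gene are compared.

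**Figure D2:**
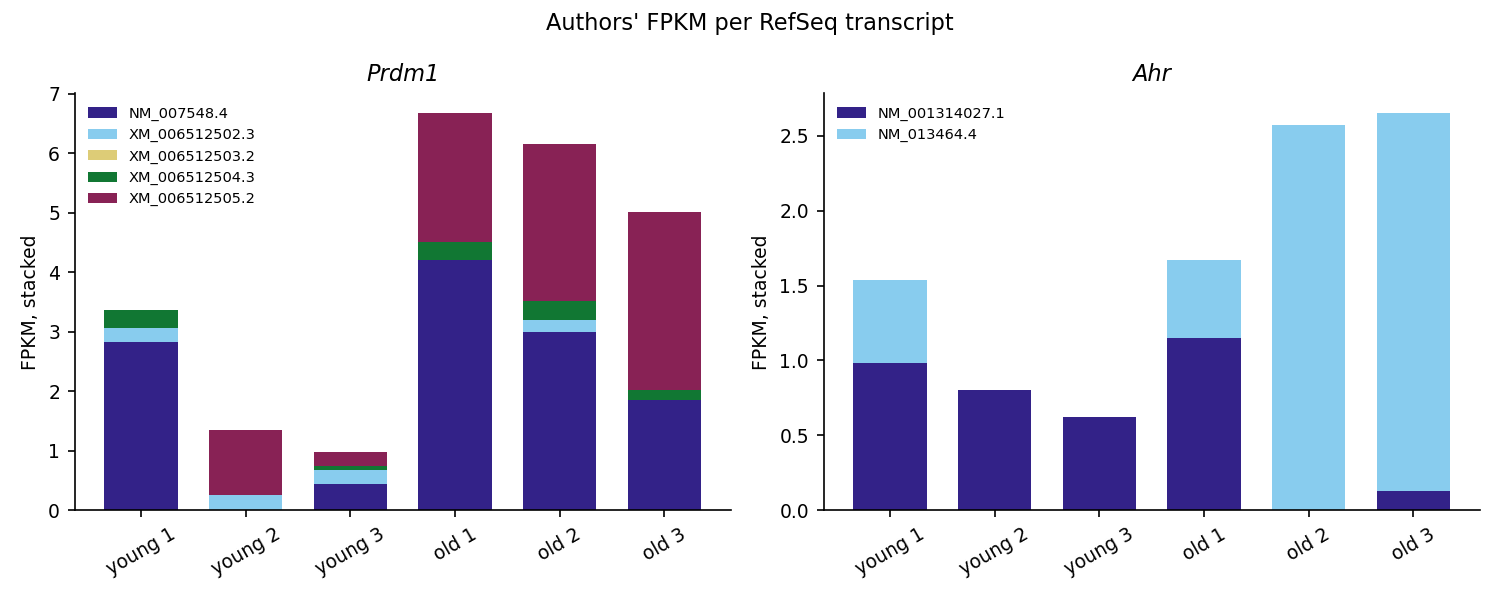
FPKM per RefSeq transcript (stacked bars from 0, colours name the transcripts) for Prdm1 and Ahr in each library. The split between transcripts differs between libraries of the same age, such as 0% and 83.9% for NM_007548.4 of Prdm1 in young replicates 2 and 1, while the bar totals are higher in old libraries.

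How closely the factors followed Il10 differed. Each gene's log2(CPM + 1) values were centred on their mean over the 6 libraries, and the root mean square difference from Il10's profile was taken as the measure of likeness, a description that uses the age groups themselves. Adding 1 narrows differences most for genes of low CPM, such as Il10 in young libraries. The root mean square difference was 0.293 for Maf, 0.647 for Prdm1 and 0.851 for Ahr, which placed them at ranks 7, 91 and 225 of 10508 other genes. By the same measure Foxp3, the regulatory T-cell factor, was nearer to Il10 than Prdm1 and Ahr, at 0.581 and rank 66, and it had the order of Il10 and Maf among old libraries. Among old libraries Il10 and Maf had the same order, with replicate 2 highest and replicate 3 lowest, whereas Prdm1 was highest in replicate 1 and Ahr in replicate 3. Among young libraries replicate 3 was lowest for all 4 genes, replicate 2 was highest for Il10, and replicate 1 was highest for Prdm1 and Ahr and level with replicate 2 for Maf. Foxp3 fell from replicate 1 to replicate 3 among young libraries, unlike Il10. Few orders of 3 libraries are possible, so a shared order alone tells little. Among old libraries the highest was 1.60-fold above the lowest for Il10, but only 1.20-fold for Maf and 1.17-fold for Foxp3. With 3 libraries per age and groups that stand apart, no correlation across libraries is given.

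**Figure D3:**
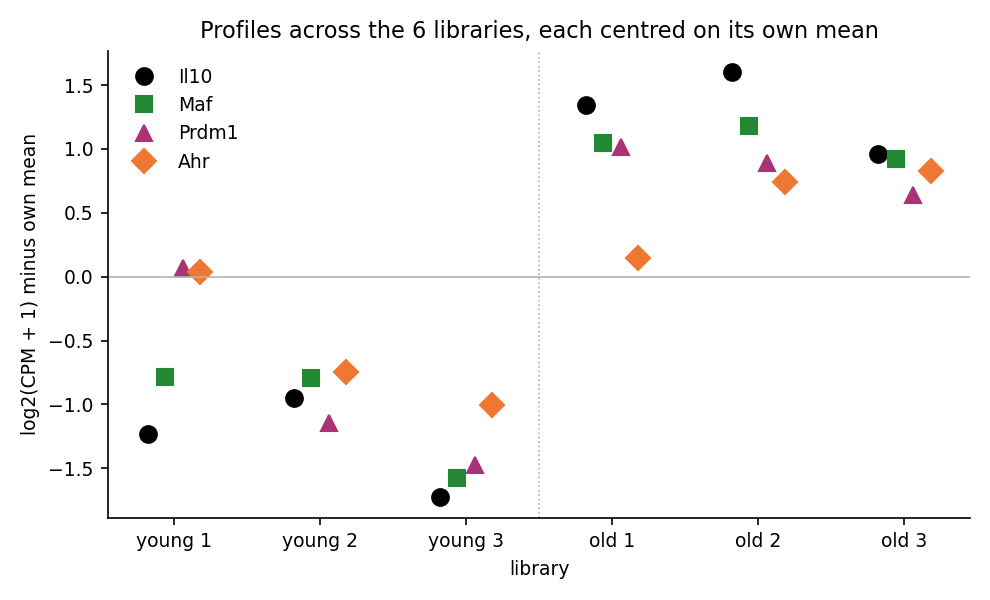
log2(CPM + 1) minus the gene's own mean (vertical axis) in each library (horizontal axis) for Il10 (circles), Maf (squares), Prdm1 (triangles) and Ahr (diamonds). Maf is the nearest of the factors to Il10 in every library, though apart from it in some. In young replicate 1 Il10 is at -1.23, Maf at -0.79, Prdm1 at 0.07 and Ahr at 0.03. In old replicate 2 Il10 is at 1.60 and Maf at 1.18.

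Il10 was also higher relative to each factor in the old libraries. The ratio of Il10 to Maf FPKM was 0.192, 0.247 and 0.204 in young replicates 1, 2 and 3 and 0.408, 0.447 and 0.335 in old replicates 1, 2 and 3. These do not overlap, and the mean log2 ratio differed by 0.89. For Prdm1 the ratio was 0.667, 2.08 and 1.31 in young and 2.56, 3.35 and 2.48 in old libraries, a log2 difference of 1.18, which was 0.75 without young replicate 1. For Ahr it was 1.45, 3.51 and 2.07 in young and 10.2, 8.01 and 4.71 in old libraries, a log2 difference of 1.73. Each of the 3 comparisons had p = 0.10 in a two-sided exact permutation test, the smallest p that 3 against 3 libraries allow, so none could pass 0.05, with or without adjustment over the 3.

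Leaving out 1 library kept the direction for all 4 genes but often ended the call. Over the 6 such fits the log2 difference lay between 2.72 and 3.23 for Il10, 1.86 and 2.22 for Maf, 1.33 and 2.33 for Prdm1, and 1.001 and 1.68 for Ahr. Il10 was called in 1 of these fits (without young replicate 1) and Maf in 2 (without young replicate 1 or 3). In the fits that lost the call, the edgeR adjusted p lay between 0.0508 and 0.139 for Il10 and between 0.0765 and 0.139 for Maf. Without young replicate 2 or old replicate 2 edgeR called 0 of all genes, with 1296 and 688 at an unadjusted p under 0.05; no other tool was run on those subsets.

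**Figure D4:**
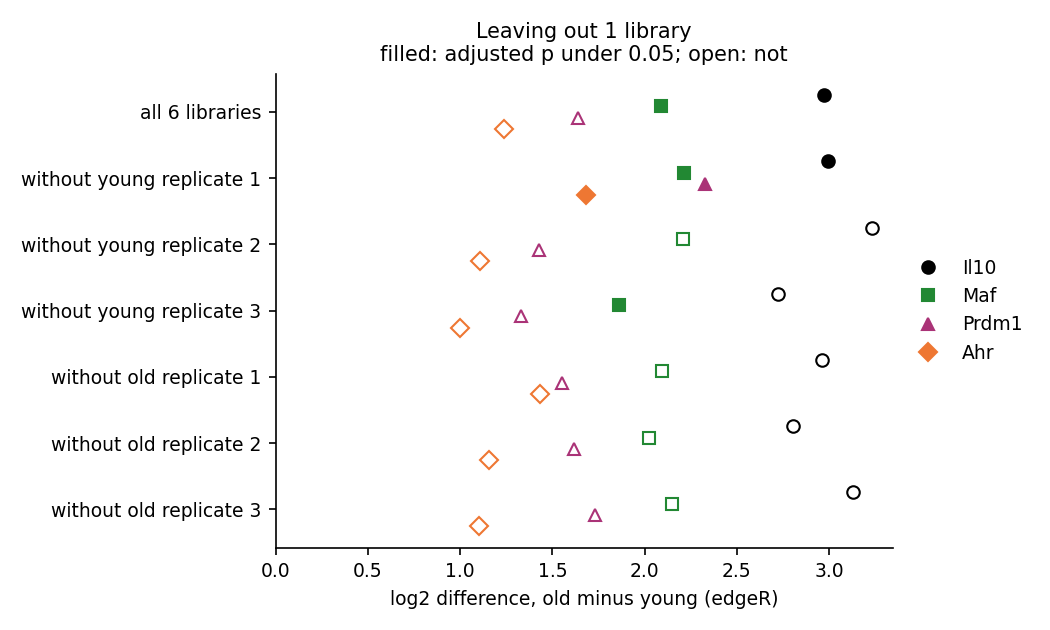
Log2 difference, old minus young (horizontal axis, from 0), with all 6 libraries and with each library left out in turn (rows), for Il10, Maf, Prdm1 and Ahr. Filled symbols passed an adjusted p of 0.05 in edgeR; all 4 genes are filled only without young replicate 1, and every value is above 0.

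Other factors described to act on Il10 were read from a list of 21, of which 20 passed the expression filter, a mean of at least 1 FPKM over the 6 libraries. Of these, 2 were called higher and 0 lower, beside 0.742% and 0.133% of all genes tested. The median log2 difference was 0.64, beside -0.035 over all genes tested. In every old library 11 lay higher, as did 9.9% of all genes tested. Batf, an activator protein 1 factor that works with Irf4, stood at 123, 110 and 146 CPM in old replicates 1, 2 and 3 and at 36.9, 48.0 and 46.0 CPM in young replicates 1, 2 and 3. It rose by 1.53 ± 0.18 on the log2 scale (SE; edgeR adjusted p = 0.025), with groups far apart. Nfil3, a basic leucine zipper factor, rose by 1.58 ± 0.26 (SE; edgeR adjusted p = 0.0451), from 33.0 ± 10.4 to 99.1 ± 15.9 CPM (SD, n = 3 each). Junb, another activator protein 1 subunit, had a log2 difference of 0.997 ± 0.21 (SE; edgeR adjusted p = 0.0931) and Gata3, the Th2 factor, of 0.84 ± 0.18 (SE; edgeR adjusted p = 0.108), neither called. Eomes, a T-box factor of cytotoxic and type 1 regulatory cells, went the other way without being called, where CPM averaged 32.5 ± 3.99 (old) and 82.0 ± 29.8 (young; SD, n = 3 each; edgeR adjusted p = 0.108). DESeq2 called 6 of the 20 higher, beside 3.56% of all genes tested, and 1, Eomes, lower. Without young replicate 1 edgeR called 9 higher and Eomes lower, beside 5.86% and 2.98% of all genes tested. The calls of Batf and Nfil3 were both lost when any 1 of the other 5 libraries was left out.

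Of 4 genes described to depend on Maf, Il21, the helper cytokine whose promoter is shown above, rose by 3.62 ± 0.45 (SE; edgeR adjusted p = 0.0262). It stood at 50.7, 66.5 and 85.8 CPM in old replicates 1, 2 and 3, in an order unlike that of Il10 and Maf, and at 2.43, 8.28 and 5.72 CPM in young replicates 1, 2 and 3. The Il21 call held without young replicate 1 and was lost when any 1 of the other 5 libraries was left out. Cxcr5, the follicle-homing receptor (it overlaps Bcl9l in the gene table), stood at 45.9 ± 9.95 against 12.03 ± 5.18 CPM in old and young libraries and was not called (SD, n = 3 each; edgeR adjusted p = 0.0689). DESeq2 called it (adjusted p = 2.61e-05), as did edgeR without young replicate 1 (adjusted p = 0.00813). Thus 2 of the 4 genes were called higher in each of these, beside 3.56% and 5.86% of all genes tested. Il4, the Th2 cytokine, had a log2 difference of 1.92 and was not called either (edgeR adjusted p = 0.306), and the list's median was 1.92. Among 7 relatives and partners of Maf, 4 passed the filter and 0 were called in edgeR or DESeq2, with 0 at an unadjusted p under 0.05 and a median of 0.18. The small Maf proteins Mafg and Mafk stood at 136 and 65.3 CPM in old and 108 and 64.3 CPM in young libraries. Maff, another small Maf protein, and Bach1, a repressor that pairs with small Maf proteins, had log2 differences of 0.51 and -0.15.

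In the Prdm1 circuit 8 genes were listed, 7 passed the filter and 0 were called in edgeR. There 4 had an unadjusted p under 0.05, beside 10.6% of all genes tested. DESeq2 called 1 higher, beside 3.56% of all genes tested, and 1 lower. The list's median was -0.48. Without young replicate 1 edgeR called 2 higher and 1 lower, beside 5.86% and 2.98% of all genes tested, and the median was -0.15. Id3, an inhibitor of E proteins in naive and memory-like cells, stood at 17.2 ± 0.753 CPM in old and 31.8 ± 3.62 CPM in young libraries, with a log2 difference of -0.88 ± 0.16 (SE; edgeR adjusted p = 0.0689). Id2, its counterpart in effector cells, stood at 88.5 ± 17.4 and 44.4 ± 13.8 CPM (SD, n = 3 each). Id3 and Id2 are the 2 genes that DESeq2 called. Bach2, a repressor of Prdm1, averaged 253 ± 41.2 CPM (old) and 353 ± 38.7 CPM (young; SD, n = 3 each) and was lower in every old library, without a call. Bcl6, the follicular factor that opposes Prdm1, stood at 120.0, 46.5 and 41.2 CPM in young replicates 1, 2 and 3 and at 81.3, 82.5 and 63.9 CPM in old replicates 1, 2 and 3. Young replicate 1 was thus highest for Bcl6 as it was for Prdm1 among young libraries. The Bcl6 log2 difference was 0.13 with all libraries and 0.79 without that library (edgeR adjusted p = 0.0222).

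The Ahr pathway list, with partners, chaperones and target genes, held 15 genes. Of these 7 passed the filter and 0 were called in edgeR or DESeq2, with 0 at an unadjusted p under 0.05 and a median of -0.055. Arnt, the DNA-binding partner of Ahr, averaged 60.9 ± 6.41 CPM (old) and 63.2 ± 20.7 CPM (young), and Tiparp, a direct Ahr target and feedback gene, averaged 20.6 ± 0.869 and 17.4 ± 6.77 CPM (SD, n = 3 each). The classical targets Cyp1a1, Cyp1b1 and Ahrr were all below 1 CPM on average in both groups. The chaperone Hsp90aa1 and the oxidative stress factor Nfe2l2 had log2 differences of -0.19 and -0.14. Arnt2 is a paralog of Arnt best known from neural tissue that was below the filter and is named here after its values were seen. It stood at 6.06, 5.51 and 7.32 CPM in old replicates 1, 2 and 3 and at 1.10, 0.645 and 0.289 CPM in young replicates 1, 2 and 3. With no expression filter its log2 difference was 3.25 ± 0.45 (SE; edgeR adjusted p = 0.0085).

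Surface and effector genes of CD4+ T cells that make interleukin-10 numbered 12. The 10 that passed the filter all had positive differences, with a median of 1.52. Of these 10, 3 were called higher and 8 lay higher in every old library, beside 0.742% and 9.9% of all genes tested. The shared direction depends in part on the filter. Havcr2 and Entpd1, at 0.593 and 0.65 FPKM on average in young libraries, passed through their old levels of 4.55 and 2.84 FPKM. Pdpn, lower in old libraries (0.1 against 0.247 FPKM), fell below the filter, as did Itga2 (0.11 against 0.06 FPKM). Tigit, an inhibitory receptor, stood at 181, 149.7 and 115 CPM in old replicates 1, 2 and 3 and at 31.5, 37.0 and 21.9 CPM in young replicates 1, 2 and 3. Its log2 difference was 2.30 ± 0.26 (SE; edgeR adjusted p = 0.0207), and it overlaps Zbtb20 in the gene table. Ctla4, the inhibitory receptor for Cd80 and Cd86, rose by 1.60 ± 0.20 (SE; edgeR adjusted p = 0.0262). Havcr2 (Tim-3) had a larger difference of 2.96 but was not called (edgeR adjusted p = 0.0764), with 7.53, 8.75 and 21.5 CPM in old replicates 1, 2 and 3. Lag3, the defining marker of type 1 regulatory cells together with Itga2, averaged 284 ± 39.6 CPM (old) and 145 ± 93.6 CPM (young, where replicate 1 was at 37.0; SD, n = 3 each) and was not called. Itga2 itself was below 1 CPM in both groups on average. DESeq2, and edgeR without young replicate 1, each called 7 of the 10 higher, beside 3.56% and 5.86% of all genes tested. The 3 calls, those of Tigit and Ctla4 among them, were lost when any 1 of the other 5 libraries was left out.

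On the receiving side, 8 genes of the interleukin-10 receptor and its signalling all passed the filter and 0 were called in edgeR. There 4 had an unadjusted p under 0.05, beside 10.6% of all genes tested. DESeq2 called 2 higher, Il10rb and Stat3, and without young replicate 1 edgeR called 5 higher, beside 3.56% and 5.86% of all genes tested. Il10ra, the ligand-binding chain, stood at 54.0, 53.5 and 51.8 CPM in old replicates 1, 2 and 3 and at 43.5, 23.4 and 18.8 CPM in young replicates 1, 2 and 3. Il10rb, the shared chain, stood at 54.8 ± 2.69 against 31.9 ± 6.95 CPM, and Stat3, the main transducer, at 464 ± 29.0 against 296 ± 46.9 CPM (SD, n = 3 each). Socs3, a feedback inhibitor induced through Stat3, was at 198 ± 15.02 against 99.8 ± 51.7 CPM, and young replicate 1, at 159, was far above the other young libraries, at 72.3 and 67.6. All 4 genes were higher in each old library than in any young one, as were 9.9% of all genes tested. The kinases Jak1 and Tyk2 had log2 differences of -0.235 and -0.03, and the list's median was 0.57.

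Receptors for signals that raise Il10 numbered 13 and all passed the filter, with 0 called in edgeR and a median of 0.15. An unadjusted p under 0.05 was reached by 3, and DESeq2 called 2 higher, beside 10.6% and 3.56% of all genes tested. Without young replicate 1 edgeR called 4 higher, beside 5.86% of all genes tested, and the median was 0.45. Il27ra, the receptor chain for interleukin-27, stood at 159 ± 18.9 against 154 ± 52.3 CPM (SD, n = 3 each). Icos, a costimulatory receptor, stood at 329.7 ± 18.8 against 202 ± 18.5 CPM with an edgeR adjusted p = 0.0976, Il2ra at 1402 ± 221 against 599 ± 201 CPM with 0.113, and Il21r at 348 ± 52.7 against 215 ± 40.4 CPM with 0.235 (SD, n = 3 each). Those 3 were higher in each old library than in any young one, as were 9.9% of all genes tested.

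**Figure D5:**
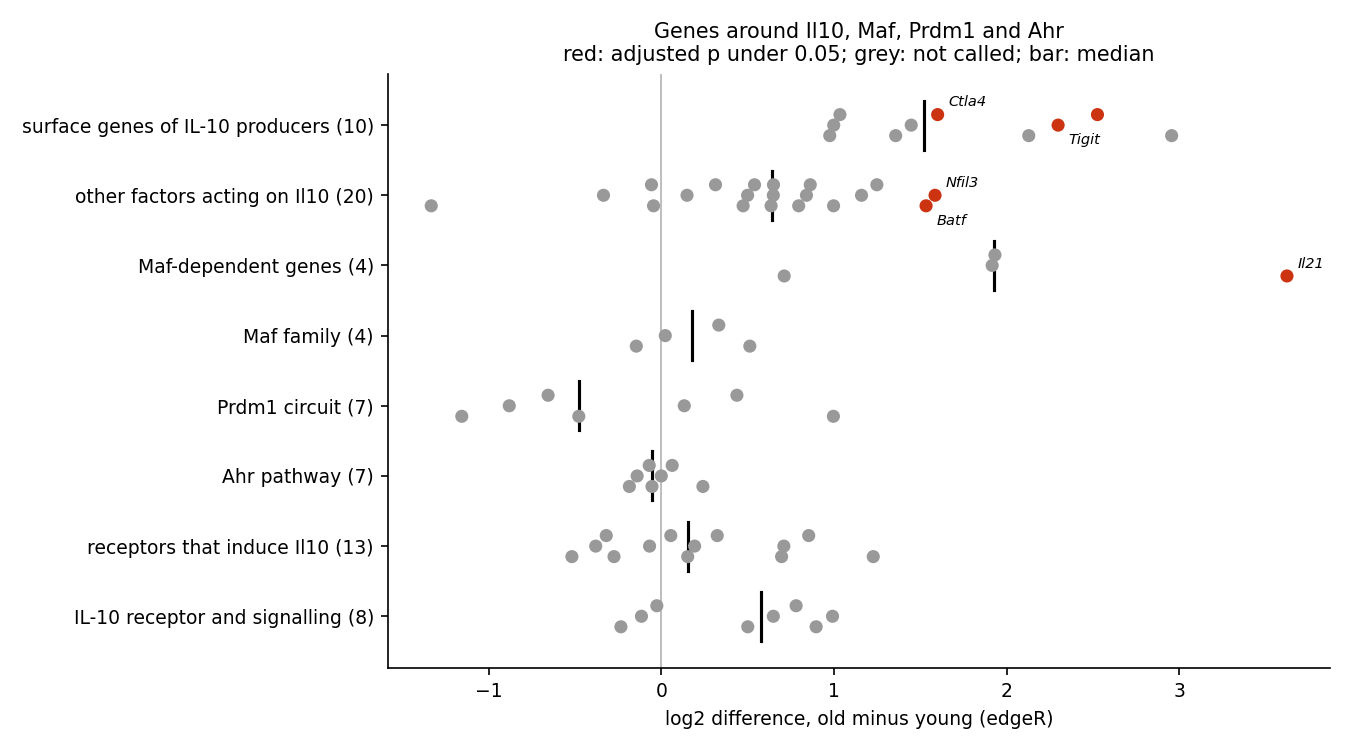
Log2 difference, old minus young (horizontal axis), for each gene passing the filter in 8 lists (rows, gene number in brackets), with called genes in red (5 of the 6 are named) and the list's median as a bar. Called genes stand in the lists of surface genes, other factors and Maf-dependent genes, and the Ahr pathway genes lie between -0.19 and 0.24.

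Among the 8 genes whose profiles were most like Il10's were Ttc39c, Rab39b, Tigit, Fam160a1, Myo3b, Maf and Tnfrsf8, with root mean square differences of 0.221 to 0.309 over the 6 libraries. They were picked for sharing Il10's age difference, so their differences are a description. Rab39b and Myo3b, at 0.48 and 0.2 FPKM on average in young libraries, passed the filter through their old levels of 3.30 and 2.05 FPKM. Maf was the only transcription factor among the 8. Ttc39c, a tetratricopeptide repeat protein, stood at 34.96 ± 5.49 against 5.75 ± 1.13 CPM, Rab39b, a small GTPase, at 11.3 ± 2.65 against 1.66 ± 0.677 CPM, and Tnfrsf8, the receptor Cd30, at 21.0 ± 1.96 against 4.12 ± 1.59 CPM (SD, n = 3 each).

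The genes nearest Il10 on chromosome 1 were read in the same way. Mapkapk2, a stress kinase that starts 28730 bases beyond Il10, stood at 221 ± 20.4 against 186 ± 28.8 CPM (SD, n = 3 each; log2 difference 0.25, edgeR adjusted p = 0.732). On the other side, Il19 was at 0.0546 and 0.285 CPM on average in old and young libraries and Il20 at 0 counts in all 6, and Il24, farther out, averaged 0.145 and 0.0537 CPM. Il22, another cytokine of the family, encoded elsewhere, stood at 0.327, 6.96 and 35.9 CPM in old replicates 1, 2 and 3 and at 1.62, 4.03 and 2.43 CPM in young replicates 1, 2 and 3. Its groups overlapped, and its log2 difference of 2.41 was 0.44 without old replicate 3. Il22 has a near-identical copy in the mouse, so its reads may be shared with that copy.

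Markers of other cells that can make interleukin-10 or express Prdm1 were read beside these results. Foxp3 stood at 393, 420 and 359 CPM in old replicates 1, 2 and 3 and at 201, 127 and 58.7 CPM in young replicates 1, 2 and 3, and was not called (log2 difference 1.60 ± 0.40, SE; edgeR adjusted p = 0.157; it overlaps Ccdc22 in the gene table). DESeq2 called it (adjusted p = 0.0034), as did edgeR without young replicate 1 (log2 difference 2.07, adjusted p = 0.00835). Of the regulatory T-cell markers 6 passed the filter, and of these Ikzf2 was called (log2 difference 1.77, edgeR adjusted p = 0.0368), a call lost when any 1 library other than young replicate 1 was left out. All 6 were called higher in DESeq2, with voom quality weights and in edgeR without young replicate 1. Over all genes tested, DESeq2 called 3.56% higher and edgeR without young replicate 1 called 5.86% higher. Voom quality weights called 629 of 10509 genes in either direction. All 6 markers were higher in each old library than in any young one, as were 9.9% of all genes tested. The summed level of the list was 1100 to 1168 FPKM in old and 454 to 648 FPKM in young libraries. Most of that sum was Izumo1r, Il2ra and Tnfrsf18, at 367, 312.5 and 268 FPKM (old) and 185, 132.5 and 144 FPKM (young) on average. Foxp3 averaged 103 and 34.1 FPKM, so the sum mainly follows those 3 other genes. The ratio of Il10 to Foxp3 FPKM was 0.163, 0.184 and 0.135 in old replicates 1, 2 and 3 and 0.0414, 0.0843 and 0.0862 in young replicates 1, 2 and 3, and these do not overlap. The part of regulatory T-cell content in the Il10 difference was not tested.

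B-cell markers summed to 6.74 to 11.3 FPKM in old and 6.05 to 18.6 FPKM in young libraries, with 0 of 5 called and log2 differences of 1.09 for Cd22 and -1.18 for Cd79a. Plasma cell markers summed to 3.41 to 10.2 FPKM in old and 2.38 to 2.80 FPKM in young libraries, with 0 of 2 called in edgeR and Jchain called in DESeq2. Jchain, the joining chain of secreted antibodies, stood at 15.3, 4.86 and 12.9 CPM in old replicates 1, 2 and 3, against 1.27, 2.20 and 4.33 CPM in young replicates 1, 2 and 3, while the plasma cell surface gene Sdc1 was at 0.852 and 0.882 CPM in old and young libraries and Mzb1, a plasma cell chaperone, had a log2 difference of 0.51. Myeloid markers summed to 83.9 to 126 FPKM in old and 73.4 to 85.0 FPKM in young libraries with 0 of 4 called. Of that, Cst3 was 89.3 FPKM (old) and 59.1 FPKM (young) on average. The log2 differences of the myeloid genes Lyz2 and Cd68 were -0.87 and 0.56, and the macrophage genes Csf1r and Adgre1 were at 0.853 and 0.399 CPM in old and 1.501 and 0.698 CPM in young libraries. Neutrophil markers were at 3.43 to 29.6 FPKM in old against 30.7 to 73.8 FPKM in young libraries (0 of 3 called in edgeR; DESeq2 called Camp lower), with log2 differences of -2.18 for Camp, -1.88 for S100a9 and -1.86 for S100a8. Natural killer markers summed to less than 1 FPKM in all libraries, and the CD8 genes to 7.28 to 9.69 FPKM in old and 10.9 to 18.2 FPKM in young libraries (0 of 1 called; Cd8b1 log2 difference -0.84). None of the marker genes of these lists was at 0 in all 6 libraries, and their part in the Il10 and Prdm1 differences was not tested.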

How the data were processed

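RNA of 6 libraries was measured, 3 per age. The authors deposited expected counts and FPKM per RefSeq transcript, 66712 in all. The submitters' processing notes name Bowtie, RSEM and the build GRCm38 (mm10). Their versions, the strand setting and any filter are not stated. Expected counts need not be whole, since a read can be split among transcripts. Mean columns in the deposited table equal the mean of the 3 samples within 3.33e-05 and were not used.

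Counts and FPKM were summed per Entrez gene (19830 of 19977 matched a RefSeq symbol; the rest held at most 0.211% of a library), and counts rounded. The main test was edgeR 4.0.16 (R 4.3.3) quasi-likelihood with TMM factors, no block and a mean FPKM of at least 1. Standard errors are the log2 difference over the square root of F. Alternatives were other filters, scalings and tests (limma 3.58.1, DESeq2 1.42.0, voom), a replicate block and leaving out each library. No 2 libraries of 1 age agreed within sampling noise (chi-square per degree of freedom of at least 21.55). Members and the 17 gene lists (8 of them markers) were chosen with earlier results of these data known, so they are no independent evidence; named genes are the members, list genes called or with the 3 smallest p per list, the 8 genes most like Il10, its neighbours, Cd4, Cd3e, Cd8a and Foxp3; other genes were named after their values were seen. Symbols, positions and promoter windows come from RefSeq for GRCm38.p6, figures from matplotlib 3.10.9. Zfp683, Trac and the neighbours Gm41952, Gm25549 and Gm51643 were not analysed here; Folr4 is an older symbol of Izumo1r, which was. Values of 4 other genes the rule or lists hold are not reported here.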

Additional observations from a re-analysis of the deposited data

How the results depend on the processing

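All 4 members were higher in old libraries under all alternatives run. Il10 and Maf were called in all 12 that kept every library, Prdm1 and Ahr in 2 of 11. Prdm1 passed in DESeq2 (log2 1.63, adjusted p = 0.00788), with voom quality weights (2.19, adjusted p = 0.00189) and without young replicate 1 (2.33), as did Ahr (1.24, adjusted p = 0.0481; 1.61, adjusted p = 0.018; 1.68). Both fall below a mean FPKM of 5, so that filter gave no value for them. Leaving out 1 library moved the log2 difference over 2.72 to 3.23 for Il10, 1.86 to 2.22 for Maf, 1.33 to 2.33 for Prdm1 and 1.001 to 1.68 for Ahr, and ended the call of Il10 in 5 of 6 and of Maf in 4 of 6 such fits (adjusted p up to 0.139). The number of genes called was 92, against 203 with no filter, 55 at a mean FPKM of at least 5, 501 in DESeq2, 629 with voom quality weights and 0 to 929 when 1 library was left out (929 leaving out young replicate 1; 0 leaving out young 2 or old 2, with 1296 and 688 at an unadjusted p under 0.05). The cause was not tested. The ratios of Il10 to each factor kept their direction in every setting, at p of at least 0.1. Deviations of same-numbered libraries correlated at 0.232, -0.025 and 0.209, so the numbers were not taken as pairs. With the replicate block 119 genes were called, 79 of them shared with the 92, and log2 differences were 3.005 for Il10, 2.131 for Maf, 1.814 for Prdm1 and 1.302 for Ahr (edgeR adjusted p = 0.00991, 0.0125, 0.0551 and 0.273). The young Il10 level rests on 30 to 68 counts per library, which limits its precision.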
